A study of Rattus norvegicus with 138 samples.

Results

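Expression of 10 genes of nitric oxide signalling and oxidative stress was followed in 3 autonomic nuclei of the brainstem while hypertension developed in the female spontaneously hypertensive rat (SHR). The genes were taken by symbol from the gene tables of the nucleus tractus solitarius (NTS) and of the ventrolateral medulla, caudal (CVLM) and rostral (RVLM): the nitric oxide synthases Nos1 and Nos3, Gch1 of their cofactor supply and Ddah1, which removes inhibitors of them, the NADPH oxidase genes Cybb, Cyba and Nox4, and the scavenging enzymes Sod1, Sod2 and Cat. They are 10 of the 32883 genes of each table. Total RNA was sequenced from bilateral tissue punches of SHR/NHsd rats and of normotensive WKY/NHsd rats, a strain from the same supplier, at ages of 8, 10 and 12 wk and of 16 and 24 wk. In the order of the ages there were 5, 4, 3, 3 and 3 WKY rats and 5, 5, 6, 6 and 6 SHRs, none of them treated, and each of the 46 rats gave 1 library per region. The study placed 8 wk before hypertension, 10 and 12 wk at its onset, 16 wk in full hypertension and 24 wk in the chronic stage. The strains differ in their whole genetic background as well as in blood pressure, and these cannot be told apart here.

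Nitric oxide is made from arginine by nitric oxide synthases, which need tetrahydrobiopterin as a cofactor, and in the brainstem it acts on the neurons that set sympathetic and vagal outflow. NADPH oxidases make superoxide, which removes nitric oxide. Superoxide dismutases turn superoxide into hydrogen peroxide, and catalase breaks hydrogen peroxide down. Oxidative stress in these nuclei has long been studied in neurogenic hypertension.

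Levels are given as CPM (read counts scaled to a common library size) after TMM scaling of all libraries together, so that a gene can be compared between rats, strains, ages and regions. CPM is not corrected for transcript length, and no level is compared between genes. A strain difference is the log2 fold change of SHRs over WKY rats, given with its SE, and calls were made where edgeR's quasi-likelihood test gave an adjusted p under 0.05 over all genes of a region. A punch holds many cell types, and fewer cells of a type cannot be told apart from less RNA per cell. The libraries held 5904581 to 17889417 counts in total (median 10143036).

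A few libraries stood apart. Library names end in the number 1 or 2, whose meaning is not given, and number 2 marks every 10 wk library, 3 of the 5 WKY libraries at 8 wk, and 1 SHR library each at 12 and 24 wk in every region. In all regions, number 2 libraries had higher medians of Ddah1, Gch1, Sod2 and Nox4 and lower medians of Nos1, Nos3, Cyba, Sod1 and Cat than the 32 number 1 libraries. For Cat the medians were 133, 172 and 189 CPM in number 2 libraries of the NTS, CVLM and RVLM. They were 147, 175 and 194 CPM in number 1 libraries. In the NTS, for example, the median of Sod1 was 236 CPM in the 14 number 2 libraries and 336 CPM in the others, and the median of Ddah1 was 90.3 CPM against 70.3 CPM. One RVLM library (WKY, 8 wk, replicate 3) had the lowest Cat and the second highest Sod1 of its region. In 2 CVLM libraries the title and the age label conflict, and they were placed at 8 wk by the title. Chat, a marker of cholinergic neurons in the dissected regions, was present in every library, with medians of 61.1 CPM in the NTS, 18.5 CPM in the CVLM and 243 CPM in the RVLM.

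The stretches of 250 bases before the start of Cybb, Sod1 and Cat are shown because these were the genes called between the strains over all ages. They come from the RefSeq promoter table (build GRCr8), which holds all 10 genes, and not from the rats of the study. Cybb lies at chrX:16065066-16065315 on the minus strand, Sod1 at chr11:42942573-42942822 on the plus strand and Cat at chr3:110329527-110329776 on the minus strand. Each is printed 5′ to 3′ along its gene, and capitals mark matches on either strand to the CCAAT box, to the GC box motif GGGCGG, to the TATA box motif TATAAA, to GAGGAA, a core bound by PU.1-type factors, or to TGACNNNGC, the core of the antioxidant response element.
Cybb promoter: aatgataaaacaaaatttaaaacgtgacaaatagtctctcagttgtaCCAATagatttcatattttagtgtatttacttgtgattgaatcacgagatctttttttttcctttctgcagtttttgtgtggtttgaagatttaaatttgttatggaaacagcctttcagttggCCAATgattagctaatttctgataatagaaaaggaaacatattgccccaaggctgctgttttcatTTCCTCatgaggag
Sod1 promoter: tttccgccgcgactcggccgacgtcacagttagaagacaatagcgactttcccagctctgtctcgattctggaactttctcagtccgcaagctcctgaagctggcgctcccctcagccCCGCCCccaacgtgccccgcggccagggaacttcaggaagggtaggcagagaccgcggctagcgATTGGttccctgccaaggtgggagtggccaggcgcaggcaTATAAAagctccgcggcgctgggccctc
Cat promoter: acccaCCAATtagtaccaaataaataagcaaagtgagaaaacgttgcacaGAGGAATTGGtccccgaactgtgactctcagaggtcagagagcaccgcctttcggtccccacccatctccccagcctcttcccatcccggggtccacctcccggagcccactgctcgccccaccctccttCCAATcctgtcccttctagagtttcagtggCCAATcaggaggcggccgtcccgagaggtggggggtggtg
The Cybb stretch holds CCAAT at 203 and 79 bases before the start and the reverse complement of GAGGAA at 14 bases before it. In Sod1 there is a TATAAA at 28 bases, a reversed CCAAT at 68 bases and a reversed GGGCGG at 132 bases before the start. Cat holds 4 matches to CCAAT, at 245, 195, 70 and 40 bases before the start, and a GAGGAA at 200 bases that shares 1 base with the second of them. Of 33469 promoters of the same length, 34% hold CCAAT, 30.5% GGGCGG, 12.9% TATAAA, 23.3% GAGGAA and 10.1% TGACNNNGC, and 0.565% hold 4 or more CCAAT. No match to TGACNNNGC was found in these 3 stretches. Such matches describe letters only.

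Cybb and Cat were higher in SHRs than in WKY rats in all 3 regions, and Sod1 was higher in the CVLM. Cybb, the catalytic subunit of the phagocyte NADPH oxidase, had folds of SHRs over WKY rats of 1.89, 2.16 and 1.92 in the NTS, CVLM and RVLM. Cat (catalase) differed by a smaller fold with much less spread between rats, 1.23, 1.29 and 1.34 in the same order. Neither synthase, Nos1 or Nos3, and neither Ddah1 nor Gch1 was called on average over the ages. In the NTS 2 of the 10 genes were called, where 11.2% of all genes were. In the CVLM 3 of 9 were called beside 12.3% of all genes, and in the RVLM 2 of 9 beside 10.8%. Nox4 passed the filter on low values in the NTS only and was not tested in the other regions. All calls were higher in SHRs, and the median log2 fold change of the tested genes was 0.01, 0.20 and 0.16 in these regions, against 0.01, -0.003 and 0.01 over all genes.

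**Figure D1:**
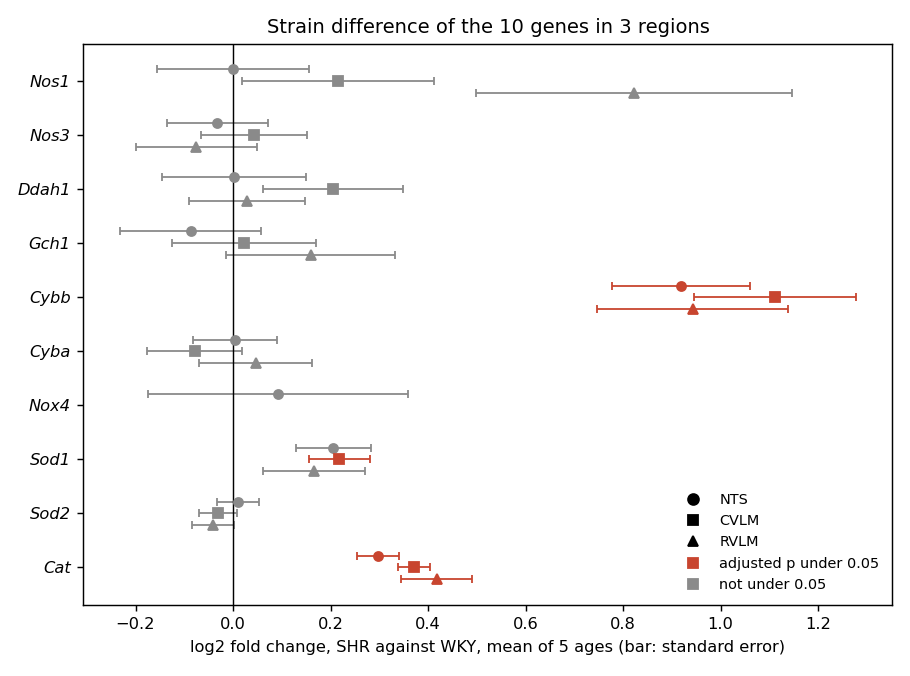
Strain difference of each gene averaged over the 5 ages, as the log2 fold change of 28 SHRs over 18 WKY rats (horizontal axis; bars show the SE), in the NTS, CVLM and RVLM, with red symbols for genes called at an adjusted p under 0.05 and grey ones for the rest. Cybb and Cat lie to the right of 0 in every region and Sod1 is called in the CVLM alone, while Nos3, Sod2 and Cyba lie close to 0.

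Cybb was a gene of low counts, and the difference between the strains was found in every region. In the NTS the 18 WKY rats ran from 0.571 to 3.49 CPM with a median of 1.41 CPM, and the 28 SHRs from 1.58 to 4.71 CPM with a median of 2.78 CPM. The strain difference was 0.92 ± 0.14 (SE, edgeR adjusted p = 4.4e-06). Ranges overlapped, and 3 of the 28 SHRs lay above every WKY rat. In the CVLM, WKY rats ran from 0.566 to 2.81 CPM with a median of 1.09 CPM and SHRs from 1.25 to 3.99 CPM with a median of 2.47 CPM (1.11 ± 0.17, edgeR adjusted p = 1.4e-06). Here 10 SHRs lay above every WKY rat and 11 WKY rats below every SHR. In the RVLM, WKY rats ran from 0.419 to 2.31 CPM with a median of 1.33 CPM and SHRs from 0.772 to 4.56 CPM with a median of 2.36 CPM (0.94 ± 0.20, edgeR adjusted p = 0.00051). In this region 15 SHRs lay above every WKY rat. With the summed level of red cell markers as a covariate, the RVLM difference of Cybb was 0.76 with an edgeR adjusted p of 0.058, not called, and with the replicate number as a block it was 0.81 (edgeR adjusted p = 0.061, not called either).

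Cybb had the same sign at 5 of 5 ages in each region, although few single ages reached the threshold with 3 to 6 rats a group. At 24 wk in the NTS the 3 WKY rats had 1.04, 1.43 and 0.907 CPM, and the 6 SHRs had a lowest value of 2.71 CPM, a median of 2.96 CPM and a highest value of 4.71 CPM. The groups did not overlap, and the difference of 1.60 ± 0.34 was called (edgeR adjusted p = 0.0034), but not without WKY replicate 3 (1.46, edgeR adjusted p = 0.058). With the replicate block this NTS call was lost too (1.62, edgeR adjusted p = 0.073). At 12 wk in the CVLM the WKY rats had 0.955, 0.894 and 1.27 CPM against a lowest SHR of 1.35 CPM, a median of 2.85 CPM and a highest of 3.76 CPM. This difference of 1.40 ± 0.39 was called too (edgeR adjusted p = 0.037), and the call was lost when any of 7 of the 9 rats of that age was left out. It was also lost with the library number as a term (1.33), the replicate block (1.29) and each age fitted alone (1.42). Red cell markers as a covariate (1.36) and leaving out number 2 libraries outside 10 wk (1.36) ended it as well. Before hypertension, at 8 wk, the log2 differences were 0.78 (NTS), 0.73 (CVLM) and 1.04 (RVLM), with edgeR adjusted p values of 0.088, 0.16 and 0.088.

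**Figure D2:**
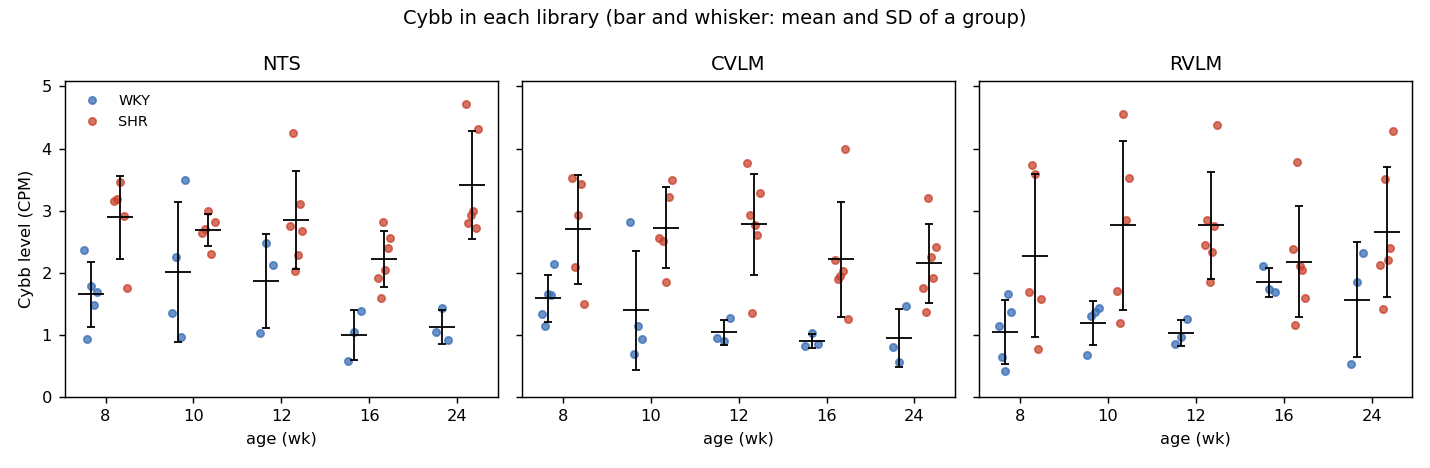
Cybb level in CPM (vertical axis) by age in weeks (horizontal axis) in the NTS, CVLM and RVLM, with 1 point per rat, a bar at the mean of each group and whiskers for its SD. SHR means lie between 2.15 and 3.41 CPM and WKY means between 0.900 and 2.01 CPM, and the SHR mean is the higher one at all 5 ages in each region.

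The strain difference of catalase was small but exceeded its SE several times over in each region. In the NTS, Cat ran from 103 to 144 CPM in WKY rats (median 124 CPM) and from 125 to 185 CPM in SHRs (median 155 CPM), a difference of 0.30 ± 0.044 (edgeR adjusted p = 1.6e-06). In the CVLM it ran from 124 to 173 CPM in WKY rats (median 148 CPM) and from 162 to 231 CPM in SHRs (median 190.2 CPM), a difference of 0.37 ± 0.032 (edgeR adjusted p = 2.1e-12). The RVLM had 54.9 to 192 CPM in WKY rats (median 158 CPM) and 180.0 to 246 CPM in SHRs (median 209 CPM), a difference of 0.42 ± 0.073 (edgeR adjusted p = 4.3e-05). The lowest of these, at 54.9 CPM, is the RVLM library that stood apart, and without that rat the difference was 0.37 (edgeR adjusted p = 1.7e-10). In the NTS, CVLM and RVLM, 19, 22 and 23 of the 28 SHRs lay above every WKY rat. With red cell markers as a covariate the RVLM difference was 0.27 (edgeR adjusted p = 0.050, not called).

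In the CVLM, the Cat levels of the strains did not overlap at any of the 5 ages. At 8 wk the WKY rats had 144, 149, 159, 171 and 145 CPM and the SHRs 215, 193, 220.2, 214 and 189 CPM, a difference of 0.42 ± 0.066 (edgeR adjusted p = 1.3e-05). At 10 wk the WKY rats had 173, 149, 149 and 171 CPM and the SHRs 214, 213, 207, 231 and 213 CPM (0.43 ± 0.070, edgeR adjusted p = 3.0e-05). Every SHR was therefore above every WKY rat already at the prehypertensive age and at onset. The differences at 12, 16 and 24 wk were 0.28, 0.37 and 0.36 with edgeR adjusted p values of 0.024, 0.0013 and 0.0016, and with red cell markers as a covariate these 3 were 0.21, 0.26 and 0.24, with none called. In the NTS, Cat was called at 8 wk (0.43, edgeR adjusted p = 0.0013) and at 16 wk (0.45, edgeR adjusted p = 0.0066), when the WKY rats had 116, 112 and 109 CPM and the SHRs at least 144 CPM. The second of these calls was lost without WKY replicate 2 or 3 (0.45 and 0.42), and with the replicate block (0.42). The CVLM call at 12 wk was lost without SHR replicate 2 or WKY replicate 1 (0.24 and 0.20). The replicate block (0.30), each age fitted alone (0.30) and no filter on low counts (0.31) ended that CVLM call too. At 10 wk the NTS difference was 0.09 (edgeR adjusted p = 0.68), with WKY rats at 127 to 144 CPM and SHRs at 129.5 to 148 CPM. In the RVLM the call at 8 wk (0.57, edgeR adjusted p = 0.014) had WKY rats at 154, 150.3, 54.9, 178 and 192 CPM and SHRs at 226, 211, 246, 188 and 220.1 CPM, and without the lowest rat it was 0.35 and still called. This RVLM call was lost with the library number as a term (0.53), with the replicate block (0.66) and with each age fitted alone (0.58), and the NTS call of Cat at 8 wk was lost with each age fitted alone (0.46). The strains did not overlap in the RVLM at 12, 16 and 24 wk, where differences of 0.34 to 0.43 were not called.

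**Figure D3:**
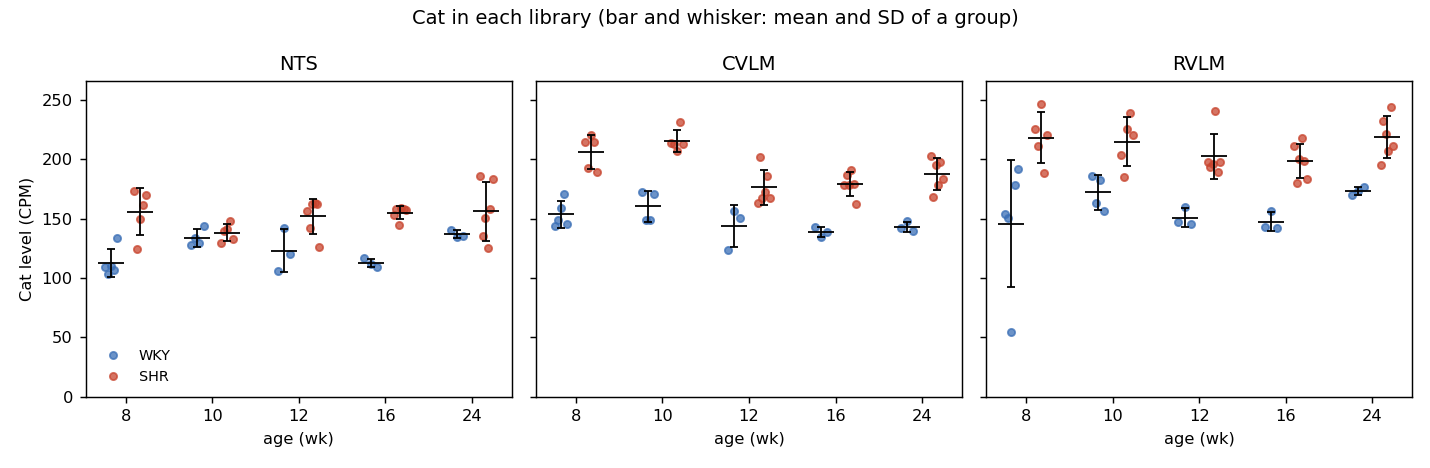
Cat level in CPM (vertical axis) by age in weeks (horizontal axis) in the 3 regions, with 1 point per rat and the mean and SD of each group. In the CVLM the SHR and WKY points are separate at every age, and in the RVLM one WKY rat at 8 wk lies far below the others at 54.9 CPM.

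Of the superoxide dismutases, Sod1 (the cytosolic copper and zinc enzyme) was called in the CVLM and Sod2 (the mitochondrial manganese enzyme) in no region on average. Sod1 in the CVLM ran from 195 to 352 CPM in WKY rats (median 245 CPM) and from 185 to 429 CPM in SHRs (median 309 CPM). The difference was 0.22 ± 0.062 (edgeR adjusted p = 0.014), with broad overlap, since 5 SHRs lay above every WKY rat and no WKY rat lay below every SHR. The Sod1 difference was 0.21 ± 0.077 in the NTS (edgeR adjusted p = 0.085) and 0.17 ± 0.10 in the RVLM (edgeR adjusted p = 0.39), neither called. In the NTS it would be called without WKY 8 wk replicate 1 or WKY 12 wk replicate 1 (0.24 and 0.25), and with red cell markers as a covariate it was called in both regions (0.38 in the NTS and 0.64 in the RVLM). At 8 wk, Sod1 was called in the NTS and CVLM. The CVLM groups did not overlap there, with WKY rats at 242, 269, 268, 219 and 247 CPM and SHRs at 364, 302, 384, 322 and 311 CPM (0.43, edgeR adjusted p = 0.030). NTS values at 8 wk were 379, 240.0, 182, 223 and 277 CPM in WKY rats and 343, 417, 485, 354 and 333 CPM in SHRs (0.54, edgeR adjusted p = 0.036). Fitting each age alone ended the NTS call of Sod1 (0.56).

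Sod2 had log2 differences of 0.01, -0.03 and -0.04 over all ages in the NTS, CVLM and RVLM, with SEs of 0.043, 0.039 and 0.043. It was lower in SHRs at 8 wk in the CVLM (-0.26, edgeR adjusted p = 0.034) and in the RVLM (-0.28, edgeR adjusted p = 0.040). The RVLM values at 8 wk were 669, 664, 718, 802 and 862 CPM in WKY rats and 767, 595, 557, 571 and 596 CPM in SHRs, and the groups overlapped through 1 SHR. The 3 highest of these WKY rats are the number 2 libraries. The 8 wk groups of the CVLM hold the 2 libraries of conflicting age, and without them Sod1 (0.46, edgeR adjusted p = 0.063) and Sod2 (-0.26, edgeR adjusted p = 0.10) were not called there. With the library number as a term, neither the Sod1 nor the Sod2 differences at 8 wk were called, and the Sod2 differences were -0.12 in the CVLM and -0.16 in the RVLM. Without number 2 libraries outside 10 wk the Sod2 differences were -0.03 and -0.15, neither called. Both Sod2 calls were also lost with each age fitted alone (-0.25 and -0.27) and without a filter (-0.25 and -0.28). Leaving out any of several single rats, some of other ages, ended them as well.

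Of the nitric oxide synthases, Nos1 (the neuronal enzyme) had its largest average strain difference in the RVLM, and none was called. In the RVLM, Nos1 ran from 0 to 2.97 CPM in WKY rats (median 0.749 CPM) and from 0.365 to 4.55 CPM in SHRs (median 1.13 CPM). The difference was 0.82 ± 0.32 (edgeR adjusted p = 0.10) with the same sign at 5 of 5 ages, and it would be called without WKY 8 wk replicate 1, the highest WKY rat (0.97, edgeR adjusted p = 0.034). In the NTS the means were 4.63 ± 2.64 CPM in WKY rats (SD, n = 18) and 4.59 ± 1.47 CPM in SHRs (SD, n = 28), and the difference was -0.0004 ± 0.16 with signs that varied between ages, from -0.76 at 12 wk to 0.67 at 10 wk. At 12 wk the WKY rats had 5.82 to 7.85 CPM and the SHRs 2.67 to 5.80 CPM, without overlap but not called (edgeR adjusted p = 0.35). In the CVLM the Nos1 difference was 0.21 ± 0.20 (edgeR adjusted p = 0.59). Nos3, the endothelial enzyme, had log2 differences of -0.03, 0.04 and -0.07 in the NTS, CVLM and RVLM, with SEs of 0.10, 0.11 and 0.12 and edgeR adjusted p values of at least 0.79.

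Gch1, the first and rate-limiting enzyme of tetrahydrobiopterin synthesis, and Ddah1, which breaks down methylated arginines that inhibit the synthases, gave no call on average. Gch1 was called once, at 8 wk in the NTS, where WKY rats had 4.33, 8.57, 10.4, 9.74 and 12.2 CPM and SHRs 2.80, 6.95, 1.79, 5.52 and 6.45 CPM. This difference of -0.99 ± 0.30 (edgeR adjusted p = 0.045) went the other way from those at 12, 16 and 24 wk (0.18, 0.16 and 0.54, none called). The 3 highest WKY rats are again the number 2 libraries, and with the library number as a term the value was -0.73 (edgeR adjusted p = 0.43). Leaving out 1 rat ended the call in 16 of 46 fits, with values from -1.17 to -0.76. Ddah1 was lower in SHRs at 8 wk and higher at 24 wk in every region by its point estimates, -0.58, -0.48 and -0.49 at 8 wk and 0.46, 0.72 and 0.59 at 24 wk in the NTS, CVLM and RVLM, and none of these was called. Its spread between rats of one group was wide, as at 8 wk in the NTS, where WKY replicate 1 had 36.4 CPM and the other WKY rats at least 88.3 CPM.

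Cyba (p22phox), the partner that stabilises several NADPH oxidases, was not called in any region. Its strain differences were 0.004 ± 0.086 (NTS), -0.08 ± 0.10 (CVLM) and 0.05 ± 0.12 (RVLM), with edgeR adjusted p values of 0.99, 0.72 and 0.87. In the RVLM it was called with red cell markers as a covariate (0.45, edgeR adjusted p = 0.013). Nox4, a constitutively active NADPH oxidase, had 0.142 to 2.03 CPM in WKY rats and 0.271 to 3.10 CPM in SHRs in the NTS (0.09 ± 0.27, edgeR adjusted p = 0.92). A CVLM library held 0 to 19 of its counts and an RVLM library 0 to 11, too low for a test.

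Over the single ages, more calls of these genes fell at 8 wk than at any other age. At 8 wk 3 of the 5 WKY libraries carry the number 2, and the median SE over all genes was smallest in each region. With the library number as a term, the 8 wk calls of Gch1 and Sod1 in the NTS were lost. Those of Sod1 and Sod2 in the CVLM and of Cat and Sod2 in the RVLM were lost too. In the NTS, 3 of the 10 genes were called at 8 wk (5.79% of all genes), none at 10 wk (4.44%) or 12 wk (3.1%), and 1 each at 16 wk (1.73%) and 24 wk (2.46%). In the CVLM, 3 of 9 were called at 8 wk (7.64% of all genes), 1 at 10 wk (3.18%), 2 at 12 wk (2.62%), and 1 each at 16 wk (2.27%) and 24 wk (7.13%). In the RVLM, 2 of 9 were called at 8 wk (9.78% of all genes) and none at 10, 12, 16 or 24 wk, when 2.3%, 1.7%, 1.65% and 2.24% of all genes were; at those ages 1, 2, 1 and 1 of them had an unadjusted p under 0.05 in edgeR. The test of a strain difference that changes with age called none of the genes in any region, with 3, 2 and 0 of them at an unadjusted p under 0.05 by edgeR, and it called 0.0145%, 0.0224% and 0.00746% of all genes in the NTS, CVLM and RVLM. A call at one age and not at another is therefore not shown to be a difference between those ages.

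Within a strain, several genes changed over the ages, Sod2 in most of the comparisons. In SHRs none of the 10 genes was called in the NTS (18.7% of all genes), while Cat, Cyba and Sod2 were called in the CVLM (20.0%) and Sod2 in the RVLM (14.1%). In WKY rats Nos1 and Sod2 were called in the NTS (12.5%), Cyba, Gch1, Sod1 and Sod2 in the CVLM (22.2%), and Sod2 in the RVLM (6.79%). Sod2 was highest at 10 wk in both strains and all regions; in the CVLM of SHRs its mean was 833 ± 43.9 CPM at 10 wk (SD, n = 5) against 628 to 667 CPM at the other ages. All libraries of 10 wk carry the number 2, so age and library number cannot be told apart there, and with the library number as a term none of these calls was left.

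Between regions, Nos1, Gch1 and Cyba were higher in the NTS and the scavengers Sod2 and Cat were higher in the ventrolateral medulla. This was compared within rats, with the animal as a block. The NTS and RVLM differed in 8 of the 10 genes, where 73.5% of all genes were called. The NTS and CVLM differed in 9 (65.9%), and the CVLM and RVLM in 8 (54.5%), so regional differences were common among all genes. These counts include Nox4, which entered this fit only by passing the filter in the NTS, where its level was highest. Its calls between regions are therefore not a test. Nos1 had a mean of 4.61 ± 1.99 CPM in the NTS, 1.48 ± 0.71 CPM in the CVLM and 1.24 ± 1.01 CPM in the RVLM (SD, n = 46 each), and its NTS level exceeded the RVLM level in 46 of 46 rats (2.09 ± 0.15, edgeR adjusted p = 1.6e-24) and higher in the CVLM than in the RVLM in 29 of 46 (0.45 ± 0.16, edgeR adjusted p = 0.011). Gch1 fell in the same order, with means of 7.71, 5.29 and 2.73 CPM, and each step was called. For Nox4 the means were 1.11, 0.565 and 0.266 CPM, given as levels only, with median counts of 12.5, 5 and 2 in the NTS, CVLM and RVLM.

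Cyba was higher in the NTS, 17.5 ± 4.06 CPM against 10.5 ± 2.80 CPM in the CVLM and 11.7 ± 3.75 CPM in the RVLM (0.75 and 0.61 higher on the log2 scale, both called). Ddah1 was low in the CVLM, with 45.9 ± 15.5 CPM against 70.7 ± 22.1 CPM in the NTS and 66.7 ± 18.1 CPM in the RVLM, and the NTS and RVLM were not called apart (0.04, edgeR adjusted p = 0.59). Nos3 ran the other way from Nos1, with 5.76 ± 1.27, 7.30 ± 1.85 and 8.19 ± 2.23 CPM in the NTS, CVLM and RVLM. Sod2 had more in the NTS than the RVLM in 0 of 46 rats (501 ± 59.0 against 649 ± 92.0 CPM) and Cat in 1 of 46 (141 ± 20.9 against 189 ± 35.1 CPM). Cybb was called higher in the NTS than in the CVLM (0.26, edgeR adjusted p = 0.038) but not apart between the NTS and RVLM (0.23, edgeR adjusted p = 0.065) or the CVLM and RVLM (-0.03, edgeR adjusted p = 0.83). Sod1 differed between the NTS and RVLM (0.16, edgeR adjusted p = 0.0026), and neither neighbouring step was called.

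**Figure D4:**
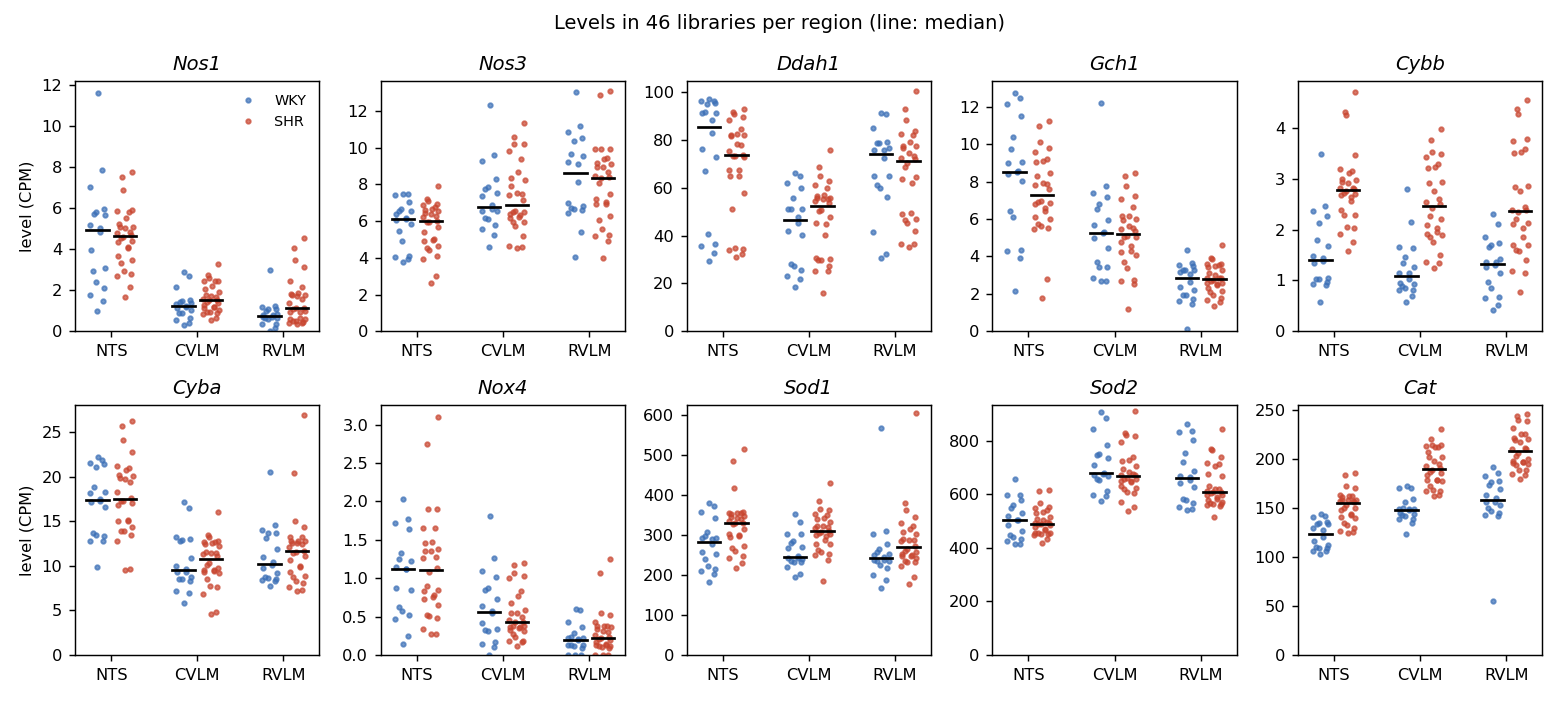
Level of each of the 10 genes in CPM (vertical axes, each panel with its own scale) in the NTS, CVLM and RVLM, with 1 point per rat and a line at the median of each strain. Nos1, Gch1 and Nox4 step down from the NTS to the RVLM, Cyba is highest in the NTS, and Nos3, Sod2 and Cat are lowest there.

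The strain difference itself was not shown to vary between regions for any of the 10 genes. The region-by-strain term called none of them between the NTS and RVLM (1.93% of all genes), the NTS and CVLM (0.328%) or the CVLM and RVLM (0.385%), and 1, 0 and 0 of them had an unadjusted p under 0.05 in edgeR. That one was Nos1, whose strain difference was 0.73 lower on the log2 scale in the NTS than in the RVLM (SE 0.29, edgeR adjusted p = 0.21). For Cat the differences of the strain effect between regions were -0.13, -0.05 and -0.07, and for Cybb -0.08, -0.16 and 0.08. The call of Sod1 in the CVLM alone is not a shown difference either, with -0.03 for the NTS against the CVLM and 0.11 for the CVLM against the RVLM.

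Of the wider list of NADPH oxidase genes, which includes Cybb, Cyba and Nox4, 3 of the 9 tested were higher in SHRs in the NTS and 3 of 8 in the CVLM and in the RVLM, and none was lower. Of all genes, 5.66%, 5.28% and 5.84% were called higher in the NTS, CVLM and RVLM. Cybb is among the 3 in each region. This list and those below were chosen with earlier results of these data known, so their counts are no independent support. Ncf1 (p47phox), the organiser subunit that partners Cybb, was higher in every region, by 0.61 (NTS), 0.77 (CVLM) and 0.76 (RVLM). Its RVLM mean was 3.65 ± 1.17 CPM in SHRs and 2.11 ± 0.926 CPM in WKY rats. Ncf4 (p40phox) was called in the NTS (0.54, edgeR adjusted p = 0.022), and Duox2, a dual oxidase, in the CVLM (0.65, edgeR adjusted p = 0.0017) and RVLM (1.00, edgeR adjusted p = 0.026). With red cell markers as a covariate neither call of Duox2 was left (0.46 and 0.66), and without number 2 libraries outside 10 wk that of Ncf4 was lost (0.48). Of 5 other sources of oxidants, Aox1 (aldehyde oxidase) was higher in the NTS and RVLM, by 0.34 and 0.38, and with red cell markers as a covariate the RVLM difference of Aox1 was 0.21 and not called.

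Of 22 tested genes of nitric oxide synthesis, 3 were higher and 1 lower in SHRs in the NTS, 4 and 2 in the CVLM, and 3 and 2 in the RVLM, where 11.2%, 12.3% and 10.8% of all genes were called in either direction. None of these calls was a synthase. Among genes of arginine supply and use, Arg1 (arginase) was higher by 0.35, 0.54 and 0.66 in the NTS, CVLM and RVLM, and Asl (argininosuccinate lyase) by 0.22, 0.23 and 0.21. Slc7a1, an arginine transporter, was higher in the NTS (0.29) and CVLM (0.37), and Cav1 (caveolin 1), which binds Nos3, in the CVLM (0.15) and RVLM (0.21). The Cav1 calls were lost in 8 and 28 of 46 fits without 1 rat, with the replicate block (0.14 and 0.21) and with red cell markers as a covariate (0.05 and 0.12), and the Asl call in the RVLM was lost with the block. Qdpr, an enzyme that recycles tetrahydrobiopterin, was lower in SHRs in the CVLM (-0.30) and RVLM (-0.33), and with red cell markers as a covariate both calls of Qdpr were lost (-0.16 and -0.14).

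Of 12 tested targets of nitric oxide, 2 were higher in SHRs in the NTS and 3 each in the CVLM and RVLM, and none was lower, beside the same 5.66%, 5.28% and 5.84% of all genes called higher. Gucy1a1, a subunit of the soluble guanylate cyclase that nitric oxide activates, was higher by 0.39, 0.51 and 0.69, with RVLM means of 37.7 ± 8.61 CPM in SHRs and 23.2 ± 4.70 CPM in WKY rats. Gucy1a2, another subunit, was higher in the NTS (0.52) and RVLM (0.48). The phosphodiesterase Pde1a was higher in the CVLM (0.33) and RVLM (0.49) and Pde2a in the CVLM (0.20), and both CVLM calls were lost without single rats. With red cell markers as a covariate all 3 CVLM calls were lost (Gucy1a1 0.34, Pde1a 0.20 and Pde2a 0.10), and in the RVLM those of Gucy1a2 (0.38) and Pde1a (0.38).

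Antioxidant genes were mostly not called. In the list, which includes Sod1, Sod2 and Cat, 1 of 34 tested genes was higher and 1 lower in the NTS, 2 and 4 of 33 in the CVLM, and 2 and 2 of 33 in the RVLM, against 11.2%, 12.3% and 10.8% of all genes called in either direction, with list medians of -0.01, -0.03 and -0.03. Cat is the one higher in the NTS. Msra, a methionine sulfoxide reductase, was lower in SHRs in every region (-0.59, -0.72 and -0.57). Hmox1, the inducible heme oxygenase, was higher in the RVLM (0.44, edgeR adjusted p = 5.3e-06), and its constitutive relative Hmox2 was lower in the CVLM (-0.18) and RVLM (-0.20). Prdx1, a peroxiredoxin, was lower in the CVLM (-0.19, edgeR adjusted p = 0.030), and this call was lost in 5 fits without 1 rat. With red cell markers as a covariate the calls of Hmox2 (-0.05 and -0.03), of Prdx1 (-0.04) and of Msra in the RVLM (-0.35) were lost.

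**Figure D5:**
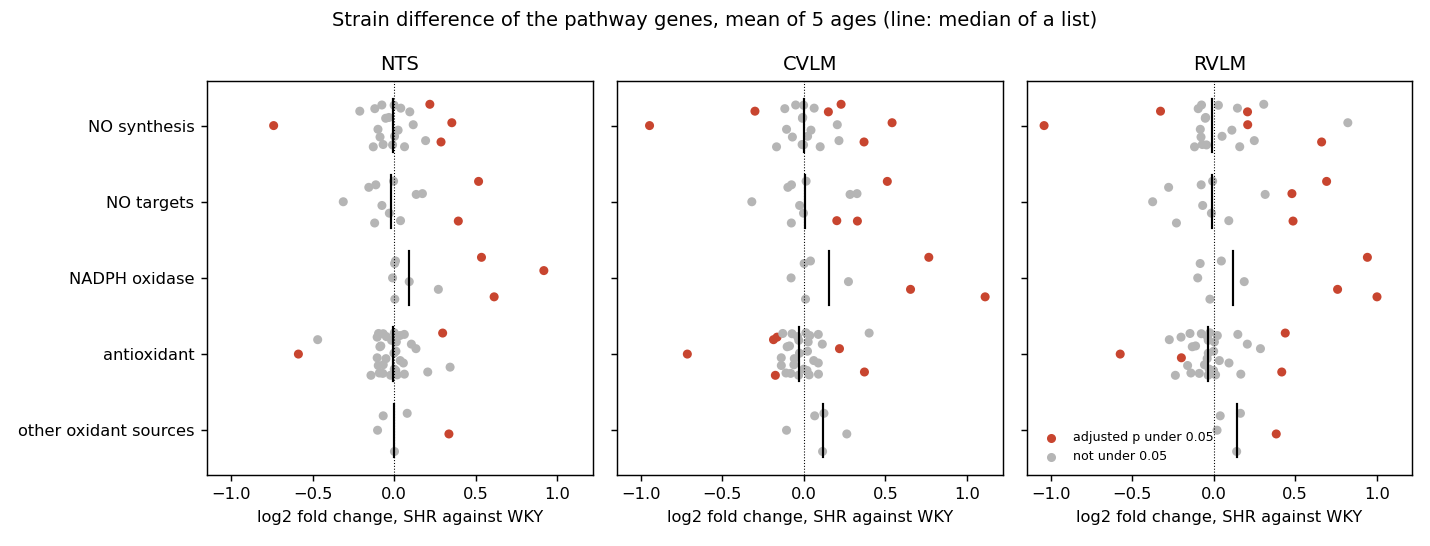
Log2 fold change of SHRs over WKY rats, averaged over ages (horizontal axis), for every tested gene of the nitric oxide and redox lists in each region, with called genes in red, the others in grey and the median of a list as a line. The medians lie between -0.03 and 0.16, and called genes of the NADPH oxidase and nitric oxide target lists lie to the right of 0.

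Cell type markers were set beside the strain differences. Of all genes, 11.2%, 12.3% and 10.8% were called in either direction in the NTS, CVLM and RVLM. In lists of 10 or fewer markers, 1 or 2 calls do not stand out from these shares. Cybb is expressed by microglia and other phagocytes, and of 10 microglia markers none was higher and 1 lower in SHRs in the NTS, none higher and 2 lower in the CVLM, and 1 higher and 1 lower in the RVLM. Their summed level had medians of 346 and 347 CPM in WKY rats and SHRs in the NTS, 282 and 274 CPM in the CVLM, and 278 and 299 CPM in the RVLM, and no marker was at 0 throughout. With this sum as a covariate the Cybb differences were 0.91, 1.16 and 0.83 and stayed called. Red cell markers were lower in SHRs, 3 of 5 in the NTS and 5 of 5 in the CVLM and RVLM, with summed medians of 815, 886 and 808 CPM in WKY rats and 487, 455 and 465 CPM in SHRs. Cat and Sod1 are also abundant in red cells, and Cat was higher in SHRs in all regions and Sod1 in the CVLM. The part of red cells in their levels was not tested. The covariate fits given above cannot test it, since the red cell level itself differed between the strains. Their covariate was a sum taken without the hemoglobin gene Hba-a3. Of 7 endothelium markers 1, 0 and 1 were higher in the NTS, CVLM and RVLM and none was lower.

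The genes whose pattern over the 30 groups of region, strain and age was most like that of each gene were listed by the Pearson correlation of mean log2(CPM + 1), among 12061 named genes tested in all regions. Group means share rats, libraries and regional differences, so these are descriptions without a test. Cybb was most like F3 (0.89), Ifit1 (0.88) and Tmlhe (0.88), Cyba most like C1qb (0.95), Lman1 (0.94) and C1qa (0.93), and Cat most like Polr3c (0.92), Enpp1 (0.92) and Rpe65 (0.92). For Nos1 the closest were Hpcal1 (0.94), Rhbdd2 (0.94) and Klc3 (0.94), for Gch1 Cadps2 (0.95), Fgf13 (0.94) and Krt77 (0.94), and for Ddah1 Mmp17 (0.95), Cbln2 (0.95) and Vav3 (0.94). Nos3 was closest to Klc2 (0.85), Smarca4 (0.82) and Phldb1 (0.81), Sod1 to Frg1 (0.91), Snrnp25 (0.86) and Nmral1 (0.85), and Sod2 to Elovl4 (0.97), St3gal6 (0.96) and Snap25 (0.96). Nox4 was not compared, since it was tested in 1 region.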

How the data were processed

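Total RNA libraries of 3 brainstem regions from 46 rats were used, all 138 of them. The authors aligned reads to the rat genome rn6 with STAR within RSEM and deposited expected counts per gene, which are not normalized. Their methods name ComBat_seq for batches, and whether the deposited counts were adjusted is not given; 5.02% (NTS), 4.95% (CVLM) and 4.88% (RVLM) of the deposited values are not whole. Groups were taken from the sample labels.

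Counts were rounded. A gene was tested in a region where its largest rlog value reached 3.5, the study's filter, which left 13793, 13408 and 13411 genes in the NTS, CVLM and RVLM and 14043 in the fit over regions. Genes were fitted in edgeR 4.0.16 (TMM, robust quasi-likelihood, R 4.3.3) with 10 groups of strain and age per region. The average difference weighs the 5 ages equally. Regions were compared in 1 fit with the animal as a block. P-values were adjusted over all tested genes (Benjamini and Hochberg), and the SE comes from the fitted weights and quasi-dispersions. On simulated data for the NTS strain difference over 13793 genes, 94% of changes of 1 and 72% of changes of 0.5 (log2) were recovered. Alternatives used DESeq2 1.42.0 and limma 3.58.1, other filters, the library number, a replicate block, leaving out rats, and 2 covariates chosen after the data were seen. No pair of libraries within a group was a repeat (270 pairs, lowest chi-square per gene 5.07).

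The 10 genes and all gene lists were chosen with earlier results of these data known. Named list genes are those called in the average strain difference, at most the 5 of largest change per list and region, plus those called the same way in all 3 regions; of the marker lists only those set beside a member are named. Of the listed genes, Nos1ap, Prkg1, Srxn1, Pecam1 and Hbb-bs were not analysed here, and some values of single list genes are not reported here.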

Additional observations from a re-analysis of the deposited data

Results flagged for a closer look

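Of 210 groups of 4 to 6 rats (10 genes, 3 regions), 23 had 1 rat far from the others by Dixon's criterion, where chance flags about 1 in 20. The value given for each is the gap to the nearest other rat as a share of the group's range. None was weighed further.

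In the NTS these were Nos3 in WKY 10 wk replicate 4 (0.906; 7.44 CPM, others up to 4.11 CPM) and in SHR 10 wk replicate 4 (0.779; 3.92 CPM, others from 5.95 CPM), and Ddah1 in WKY 8 wk replicate 1 (0.852; 36.4 CPM, others from 88.3 CPM). Nox4 stood out in SHR 24 wk replicate 6 (0.652), Sod2 in SHR 10 wk replicate 1 (0.788) and Cat in WKY 8 wk replicate 5 (0.764; 133 CPM, others up to 110.3 CPM).

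In the CVLM they were Ddah1 in SHR 16 wk replicate 2 (0.704), Cybb in SHR 16 wk replicate 5 (0.65; 3.99 CPM, others up to 2.21 CPM), Nox4 in SHR 8 wk replicate 1 (0.74) and SHR 12 wk replicate 2 (0.683), and Sod1 in SHR 12 wk replicate 1 (0.738; 429 CPM, others up to 332 CPM). Sod2 in SHR 10 wk replicate 1 (0.716) and Cat in SHR 10 wk replicate 4 (0.725; 231 CPM, others up to 214 CPM) were also far from the rest.

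In the RVLM they were Nos3 (0.921; 11.2 CPM, others up to 6.80 CPM) and Cybb (0.836; 0.666 CPM, others from 1.3 CPM) in WKY 10 wk replicate 1, Gch1 in WKY 10 wk replicate 2 (0.837), and Sod1 in WKY 8 wk replicate 3 (0.751; 568 CPM, others up to 310.4 CPM). SHR 12 wk replicate 1 was far above the others for both Cyba (0.718; 27.0 CPM, others up to 12.9 CPM) and Sod1 (0.677; 603 CPM, others up to 315 CPM), and it also had the highest Sod1 of the NTS at 515 CPM. Nox4 stood out in SHR 16 wk replicate 6 (0.687) and SHR 24 wk replicate 1 (0.645), Sod2 in SHR 8 wk replicate 1 (0.815), and Cat in SHR 12 wk replicate 4 (0.84; 240.2 CPM, others up to 198 CPM).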

How the results depend on the processing

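The average strain differences of Cybb and Cat kept their sign under every alternative, and leaving out each rat in turn left them called, from 0.87 to 1.00, 1.06 to 1.22 and 0.86 to 1.01 for Cybb and from 0.29 to 0.32, 0.36 to 0.39 and 0.37 to 0.44 for Cat in the NTS, CVLM and RVLM. Over these fits, in the NTS, CVLM and RVLM, 2 to 3, 3 and 2 to 3 members were called on average, 3 to 6, 6 to 11 and 1 to 5 over the single ages, 0 to 2, 2 to 4 and 0 to 1 over the ages of SHRs, 1 to 4, 0 to 4 and 1 over the ages of WKY rats, and 1400 to 1706, 1464 to 1977 and 1263 to 1736 of all genes on average. The strain difference that varies with age called 0 members under every alternative.

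The study's own threshold (adjusted p of at most 0.01 and a 2-fold change) left 0, 1 and 0 members called on average in the NTS, CVLM and RVLM, 1, 0 and 0 over the 5 single ages, and 200, 204 and 209 of all genes. Members called over the single ages, 5, 8 and 2 in the NTS, CVLM and RVLM, became 2, 5 and 0 when ages were fitted one by one, and 3, 5 and 0 with the library number as a term. Without number 2 libraries outside 10 wk they were 5 in the CVLM and 5 in the RVLM, without a filter 1 in the RVLM, and with red cell markers 4 in the RVLM. Over the ages of SHRs, members called became 0 with the library number in the CVLM and RVLM, 0 with red cell markers in both, and 0 with microglia markers in the RVLM; in the NTS they were 1 with DESeq2, with its size factors and with filterByExpr, and 2 without number 2 libraries outside 10 wk. Over the ages of WKY rats they became 0 with the library number in all regions, 1 in the NTS and 0 in the CVLM with red cell markers, 1 in the CVLM and 0 in the RVLM with microglia markers, 1 in the NTS and 2 in the CVLM without a filter, 1 in the CVLM without number 2 libraries outside 10 wk, and 2 there without the 2 libraries of conflicting age. Between the CVLM and RVLM, 5 members were called with DESeq2 size factors and with filterByExpr. The cause of these changes was not tested.

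Replicate numbers were not shown to pair rats of the strains: the deviations of same-numbered rats correlated with medians of 0.22, 0.18 and 0.07 over 18 pairs in the NTS, CVLM and RVLM, and exceeded 0.1 in 12, 13 and 7 of them. With the replicate block, 2, 3 and 1 members were called on average in the NTS, CVLM and RVLM, 3 and 0 over the single ages in the NTS and RVLM, and 965 of all genes in the RVLM, and the RVLM Cybb difference was 0.81 (edgeR adjusted p = 0.061). The region comparisons without the animal, a fit with no replicate block, called 8, 9 and 7 members.

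Depth limits Nox4 in the CVLM and RVLM and gives Cybb and Nos1 few counts. Groups of 3 WKY rats limit the single ages. Under the alternatives, with fits without 1 rat included, 139 member values that were called lost the call, calls at single ages among them. Uncalled values were counted for the average and region comparisons only, not for single ages. Of these 1392 values 9 gained a call and 99 had the other sign. The lost and gained calls all kept their sign. Losses and gains therefore come from unlike sets, and calls gained at single ages are not in the 9.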

Other observations

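Other marker lists were read for the same strain comparison. It called 11.2%, 12.3% and 10.8% of all genes in either direction in the NTS, CVLM and RVLM. Of 6 oligodendrocyte markers, 1, 4 and 3 were lower in SHRs in the NTS, CVLM and RVLM, with list medians of 0.07, -0.19 and -0.14 on the log2 scale and summed medians in the CVLM of 55201 CPM in WKY rats and 48535 CPM in SHRs. Of 6 astrocyte markers none was called in the NTS or CVLM and 1 was higher in the RVLM. The 6 neuron markers and the 7, 8 and 7 monoamine neuron markers tested in the NTS, CVLM and RVLM did not pass the edgeR test. Of the choroid plexus markers, 3 of the 5 tested were lower in SHRs in the NTS, where 1 WKY library held a sum of 4438 CPM, and 1 of 2 was higher in the CVLM. Of 2 region markers tested in the NTS and 1 each in the CVLM and RVLM, none was called.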
